A study of Mus musculus with 16 samples.

Results

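The 10 genes described here are markers of endothelial cells, the cells that line blood vessels: Pecam1, Cdh5, Kdr, Flt1, Tie1, Tek, Cldn5, Sox17, Emcn and Eng. They were chosen by gene symbol, and all 10 were found among the 23222 genes of the deposited tables. RNA-seq had been run on myofibres, the contractile cells of muscle, from the mouse extensor digitorum longus, a fast hindlimb muscle. Per the series' design text, mononucleated cells had been removed from the fibres before RNA was taken. The 16 libraries came from male C57BL/6 mice and fell into 4 groups of 4: old runners (22 months, 5 weeks of voluntary wheel running), old controls (22 months, no running), young runners (4 months, 5 weeks of voluntary wheel running) and young controls (4 months, no running). Nothing in the labels says that each library is a different animal. The p-values therefore measure the spread between libraries, which may be technical. Libraries are named here by their headings in the deposited tables (O1ex to O4ex, Oc1 to Oc4, Y1ex to Y4ex, and Yc4, Yc5, Yc7 and Yc8).

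Vascular endothelial growth factor (VEGF) drives the growth and permeability of vessels through the receptor tyrosine kinase encoded by Kdr, while the receptor encoded by Flt1 binds the same ligand with high affinity and limits its action. Angiopoietins act on the receptor encoded by Tek, with which the related receptor encoded by Tie1 associates. The activating ligand, encoded by Angpt1, keeps vessels quiescent, while the action of the ligand encoded by Angpt2 depends on context. Endothelial cells are held together by adherens junctions built on VE-cadherin (Cdh5), by claudin-5 of tight junctions (Cldn5) and by PECAM-1 (Pecam1), carry endomucin (Emcn), a surface sialomucin of capillaries and veins, and endoglin (Eng), a co-receptor for BMP9, and use the transcription factor gene Sox17 in arterial development. In skeletal muscle each fibre is surrounded by capillaries, and endurance exercise is known to increase the capillary supply.

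Libraries held 30.7 to 67.4 M assigned reads and 12694 to 17565 genes with at least 1 read, with the fewest genes in old control Oc1 (12694) and young runner Y3ex (12698). A list of 10 myofibre genes took 12.3% to 19.7% of the reads of a library. The 10 endothelial markers together took 8.75 to 139 reads per 1000000 assigned reads (RPM), or 497 to 5626 reads in a library. Their summed level was 54.3 ± 36.9 RPM in old runners, 51.9 ± 48.5 RPM in old controls, 71.4 ± 49.0 RPM in young runners and 16.8 ± 7.96 RPM in young controls (SD, n = 4 each). RNA of the marker set was thus detected at a low level in every library, although single markers had no read in some. Which cells it came from was not tested, and in bulk RNA fewer cells of a type and less RNA per cell cannot be told apart. The SD within a group was 38.3% to 193% of the mean for single markers, against 3.33% to 44.7% that counting error alone gives at these read numbers. Reads amplified without molecular identifiers are not independent molecules, so counting error is a lower limit.

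Per kilobase of exon, Cldn5 was the highest marker in all 16 libraries, with a mean of 9.43 ± 8.20 RPM per kb (SD over 16 libraries). Sox17 followed at 1.36 ± 1.48, Tie1 at 1.12 ± 0.989, Pecam1 at 1.02 ± 1.12, Eng at 0.773 ± 0.560, Cdh5 at 0.574 ± 0.544, Flt1 at 0.449 ± 0.362, Kdr at 0.377 ± 0.436, Emcn at 0.201 ± 0.253 and Tek at 0.183 ± 0.238 RPM per kb. Below Cldn5, each neighbouring pair in this order differed by less than the smaller of the 2 SDs, and the order was held in only 6 to 11 of the 16 libraries for each pair. Cldn5 led each of the 4 groups, while the gene in second place per length was Tie1 in old runners, Sox17 in old controls and in young runners, and Eng in young controls.

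**Figure D1:**
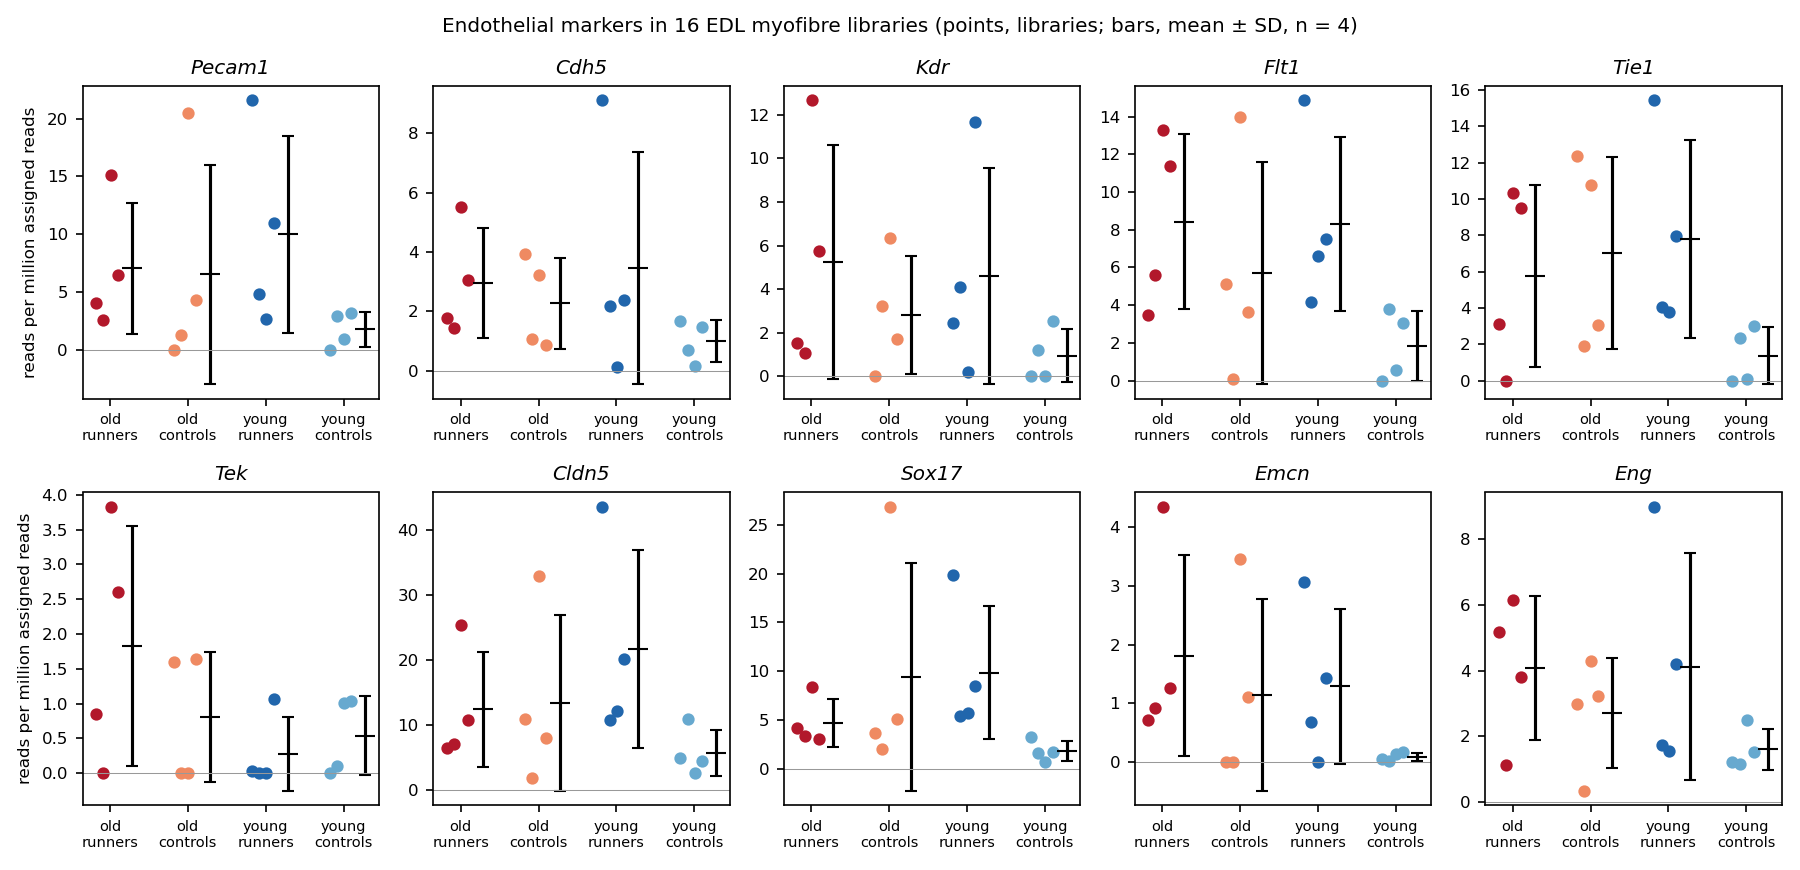
Level of each endothelial marker in RPM (vertical axis, linear, a separate scale for each gene) in old runners, old controls, young runners and young controls. Points are libraries and bars give the mean ± SD (n = 4); 1 library often lies far above the others of its group, such as old control Oc3 at 26.9 RPM of Sox17, and young controls lie low for most genes.

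The junction genes varied widely among libraries of the same group. Gene positions are those of GENCODE M21 on mm10, and each value counts reads over all exons of a gene. Cldn5 (chromosome 16, 18776847 to 18778262, plus strand) had 6.45, 7.15, 25.4 and 10.9 RPM in old runners O1ex to O4ex, against 11.03, 1.86, 33.0 and 8.08 RPM in old controls Oc1 to Oc4. It had 43.6, 10.8, 12.2 and 20.2 RPM in young runners Y1ex to Y4ex, against 4.96, 10.9, 2.68 and 4.49 RPM in young controls Yc4, Yc5, Yc7 and Yc8. Its 4 highest values were those of Y1ex, Oc3, O3ex and Y4ex, so both runner groups and the old controls held a high library and the young controls did not. Pecam1 (chromosome 11, 106654217 to 106750628, minus strand) had 4.01, 2.55, 15.1 and 6.47 RPM in old runners, against no read, 1.28, 20.51 and 4.29 RPM in old controls, in the same order of libraries. It had 21.6, 4.80, 2.63 and 10.96 RPM in young runners, against 0.0226, 2.95, 0.931 and 3.16 RPM in young controls. Oc1, in which Pecam1 had no read, held 520 reads of Cldn5 and 583 of Tie1. The libraries were amplified from 10 ng of RNA, and whether such a 0 is absence of the transcript or loss in amplification was not tested. Cdh5 (chromosome 8, 104101625 to 104144511, plus strand) averaged 2.95 ± 1.85 RPM in old runners, 2.26 ± 1.54 RPM in old controls, 3.45 ± 3.91 RPM in young runners and 0.994 ± 0.697 RPM in young controls (SD, n = 4). It was detected in all 16 libraries at 6 reads or more. Emcn (chromosome 3, 137341067 to 137432185, plus strand) had 22 to 233 reads in old runners, 0 to 125 in old controls, 0 to 110 in young runners and 1 to 9 in young controls. Emcn was thus near the limit of detection in every young control, at 0.0915 ± 0.0710 RPM, where 3 reads correspond to 0.0445 to 0.0977 RPM depending on the library.

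The VEGF receptors differed from each other in level per length by less than their spread. Flt1 (chromosome 5, 147561604 to 147726011, minus strand) had 3.45, 5.61, 13.3 and 11.4 RPM in old runners, against 5.13, 0.0581, 14.0 and 3.66 RPM in old controls. It had 14.9, 4.17, 6.60 and 7.5 RPM in young runners, against no read, 3.78, 0.539 and 3.05 RPM in young controls. Every young runner lay above every young control, whereas the old groups overlapped. Kdr (chromosome 5, 75932827 to 75978458, minus strand) had 1.53, 1.07, 12.7 and 5.74 RPM in old runners, against no read, 3.24, 6.36 and 1.70 RPM in old controls. It had 2.46, 4.10, 0.202 and 11.7 RPM in young runners, against no read, 1.23, 0.0163 and 2.54 RPM in young controls. In Y1ex, the young runner with the highest level of 8 of the 10 markers, Kdr stood at 2.46 RPM, below Y2ex and Y4ex.

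The Tie receptors differed in how often they were detected. Tie1 (chromosome 4, 118471191 to 118490061, minus strand) had 3.13, no read, 10.3 and 9.51 RPM in old runners, against 12.4, 1.92, 10.8 and 3.05 RPM in old controls. It had 15.4, 4.06, 3.77 and 7.98 RPM in young runners, against no read, 2.37, 0.0653 and 3.03 RPM in young controls. Old runner O2ex, with no read of Tie1 or Tek among 67.4 M, held 482 reads of Cldn5 and 378 of Flt1. Tek (chromosome 4, 94739289 to 94874976, plus strand) had 26, 0, 205 and 122 reads in old runners, against 75, 0, 0 and 62 reads in old controls. It had 1, 0, 0 and 49 reads in young runners, against 0, 5, 62 and 55 reads in young controls. Tek was therefore without a read in 6 of the 16 libraries, among them Oc3, which held the highest level of 7 of the 10 markers among old controls. It was the only marker with a lower mean in young runners (0.273 ± 0.528 RPM) than in young controls (0.538 ± 0.566 RPM; SD, n = 4).

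Sox17 (chromosome 1, 4490931 to 4497354, minus strand) had 4.17, 3.34, 8.36 and 3.08 RPM in old runners, against 3.71, 2.03, 26.9 and 5.14 RPM in old controls. It had 19.8, 5.37, 5.72 and 8.48 RPM in young runners, against 3.27, 1.58, 0.702 and 1.76 RPM in young controls. The young groups did not overlap, and 1 old control, Oc3, lay far above the next of its group. Exons of Sox17 overlap the predicted gene Gm37587 on the opposite strand, which had 33 reads in Oc3, 1 read in Yc5 and none elsewhere. The library kit is not stated to keep the strand, so reads of overlapping genes cannot be told apart. Eng (chromosome 2, 32646595 to 32682669, plus strand) averaged 4.07 ± 2.19 RPM in old runners, 2.71 ± 1.67 RPM in old controls, 4.12 ± 3.46 RPM in young runners and 1.62 ± 0.619 RPM in young controls. Eng shares exon bases with Fpgs on the opposite strand, which had 101 to 718 reads per library.

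**Figure D2:**
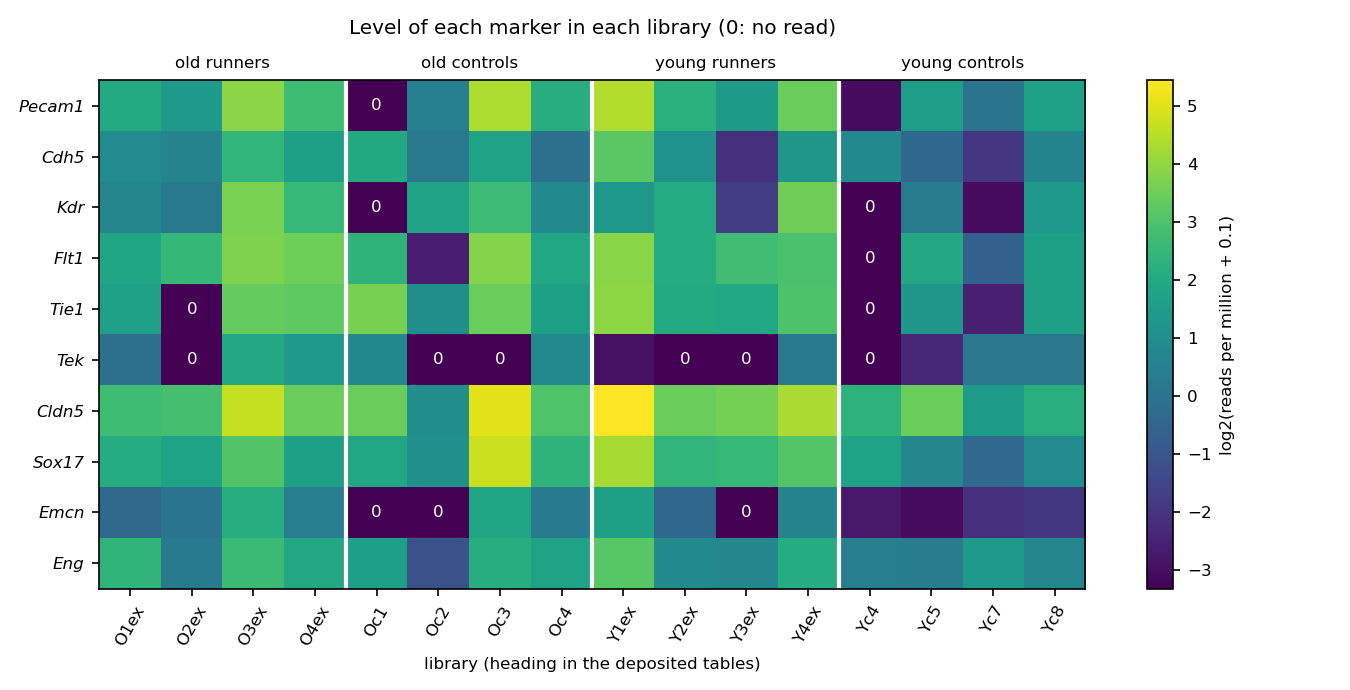
Level of the 10 markers (rows) in the 16 libraries (columns, with old runners, old controls, young runners and young controls from left to right), as log2(RPM + 0.1), where 0 marks a marker without a read. Single markers drop out in libraries in which others are well detected, such as Pecam1 in Oc1 (0 reads, against 583 of Tie1) and Tie1 in O2ex (0 reads, against 482 of Cldn5).

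With running at 4 months, 9 of the 10 markers had a higher mean in young runners than in young controls, and none passed the test. The ratio of mean RPM, young runners over young controls, was 5.72 for Tie1, 5.65 for Pecam1, 5.38 for Sox17, 4.86 for Kdr, 4.50 for Flt1, 3.76 for Cldn5, 3.47 for Cdh5 and 2.55 for Eng, and 4.26 for the summed markers. That of Emcn was 14.2, against 1 to 9 reads in each young control, and that of Tek was 0.508. Single libraries moved these ratios. Without Y1ex they were 3.47 for Pecam1, 3.56 for Sox17, 2.499 for Cldn5, 1.57 for Cdh5, 1.55 for Eng and 7.72 for Emcn. Without Y4ex they were 2.38 for Kdr and 0.0173 for Tek, without Yc8 11.07 for Kdr and 9.63 for Tie1, and without Yc5 6.92 for Flt1. On the variance-stabilised log2 scale of the deposited tables, where differences of weakly expressed genes are shrunken, Sox17 differed by 1.34 ± 0.32 (SE; adjusted p = 0.0763, limma with Benjamini-Hochberg adjustment over 10624 genes). In the same fit Cldn5 differed by 1.38 ± 0.38 (adjusted p = 0.107), Tie1 by 1.496 ± 0.42 (adjusted p = 0.113), Flt1 by 1.41 ± 0.40 (adjusted p = 0.121) and Pecam1 by 1.40 ± 0.45 (adjusted p = 0.164). The other 3 markers tested were Kdr at 0.98 (adjusted p = 0.327), Eng at 0.55 (adjusted p = 0.373) and Cdh5 at 0.56 (adjusted p = 0.5003). Tek and Emcn stayed under the filter, which kept a gene at least 1 above the lowest value of the table in at least 4 libraries, and differed by -0.26 and 0.61.

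In this comparison 0 of 10 markers were called by limma, as by limma voom on the recovered reads, and 5 had an unadjusted p under 0.05. Of all 10624 genes 81 were called (0.762%) and 1844 had an unadjusted p under 0.05. On the normalised reads of this comparison, Flt1, Tie1, Cldn5 and Sox17 were higher in every young runner than in every young control. Of the 10624 genes 607 were (5.71%). In RPM the young groups overlapped for Cldn5, with 10.81 in young runner Y2ex and 10.93 in young control Yc5. The median difference of the 10 markers was 1.16, against 0.01 over all genes tested. The calls depended on how libraries were weighted. Limma's library weights gave 2.67 to young runner Y4ex, 0.295 to young runner Y3ex and 0.253 to young control Yc4, and with them 6 markers rose (Pecam1, Kdr, Flt1, Tie1, Cldn5 and Sox17, with adjusted p = 0.00542 to 0.0300). That setting called 1394 of all genes. Without Y1ex, the young runner with the highest summed markers, the ratio of the sums was 2.92 in place of 4.26.

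Among the lists of other cell types, only the fibro-adipogenic list held genes that passed between the young groups. Of 11 fibro-adipogenic markers (genes of the connective-tissue cells between fibres), 3 of the 6 tested rose in young runners: Col1a2 by 2.18, Dcn by 3.25 and Gsn by 3.39 (adjusted p = 0.00380, 0.0190 and 0.0190, limma). The summed list stood at 80.4 to 272 RPM in young runners and 1.33 to 17.0 RPM in young controls, and no gene of it was at 0 in all 4 libraries of either group. Of 11 pericyte and smooth muscle markers 0 of the 3 tested passed, with the smallest p in Rgs5 (2.34, adjusted p = 0.0635). Their summed level, mostly that of Abcc9, was 146 to 317 RPM in young runners and 55.8 to 197 RPM in young controls, and no marker was at 0 in all libraries of either group. The 5 erythroid genes, of red blood cells, summed to 4.10 to 18.2 RPM in young runners and 0.293 to 6.53 RPM in young controls, with none at 0 throughout a group and 0 of the 2 tested passing (Hbb-bs, a beta globin, 0.91, adjusted p = 0.239). Macrophage and leukocyte markers, led by Cd68, summed to 18.5 to 62.8 RPM in young runners and 13.9 to 56.7 RPM in young controls. Ptprc, the pan-leukocyte marker, was without a read in all 8 libraries, and 0 of 3 tested passed (Mrc1, -1.22, adjusted p = 0.0963). The part of these other cell types in the differences of the endothelial markers was not tested.

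With running at 22 months the groups overlapped for each of the 10 markers. The ratio of mean RPM, old runners over old controls, was 1.05 for the summed markers and ran from 0.502 (Sox17) to 2.25 (Tek). On the deposited scale 8 of the 10 markers were higher and 2, Tie1 (-0.25 ± 0.44) and Sox17 (-0.23 ± 0.36), were lower; the largest difference was that of Flt1 (0.52 ± 0.38, adjusted p = 0.509, limma). None of the 10 was called by limma or by limma voom, and none of the 8 tested had an unadjusted p under 0.05. Over all genes 12 of 9379 genes were called (0.128%), 7 of them higher in old runners (10 of 22 with quantile normalisation). No marker was higher in every old runner than in every old control, which 456 of the 9379 genes were (4.86%). The median difference of the 10 markers was 0.31, against 0.03 over all genes tested. These values rest on single libraries. Without old control Oc3 the ratio of the sums was 1.91, without old runner O3ex it was 0.721, and the ratio of Sox17 was 1.31 without Oc3. That of Tek was 1.43 without O3ex and 3.44 without Oc4. The summed fibro-adipogenic markers stood at 43.0 to 93.9 RPM in old runners and 5.72 to 50.5 RPM in old controls, and 0 of the 4 genes tested passed (Dcn, 1.28, adjusted p = 0.0964). Pdgfra, a defining marker of these cells, was without a read in all 8 libraries. Pericyte and smooth muscle markers summed to 104 to 280 RPM in old runners and 33.8 to 203 RPM in old controls (0 of 2 tested passed; Cnn1 was at 0 in both groups), and erythroid genes to 4.79 to 18.7 RPM in old runners and 4.77 to 21.04 RPM in old controls (0 of 2 tested passed). Their part in the differences was not tested.

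**Figure D3:**
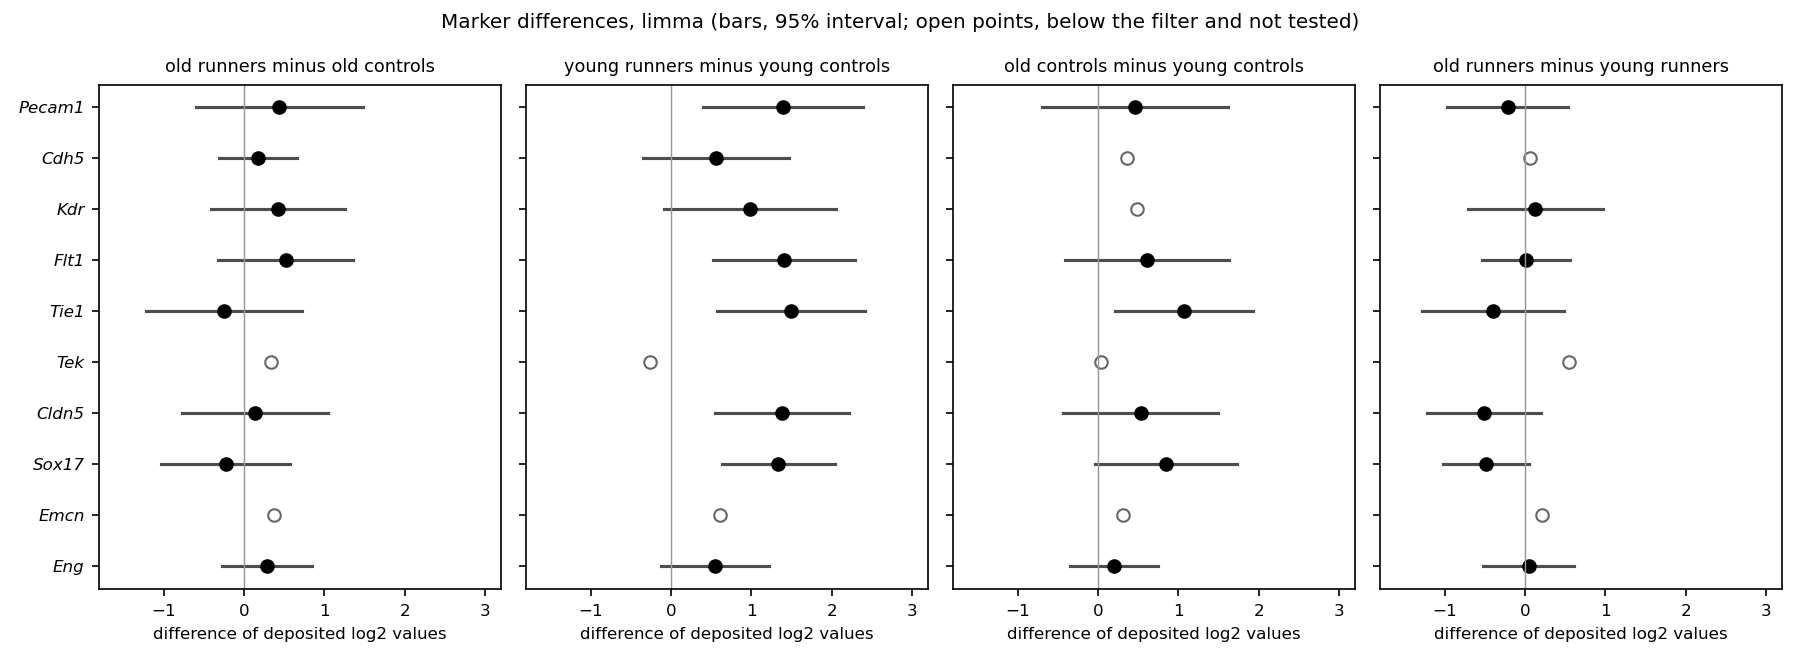
Difference of each marker between groups on the deposited log2 scale (horizontal axis), runners minus controls or old minus young, as each panel's title gives it. Filled points are limma estimates with their 95% interval and open points are markers under the filter, which were not tested; intervals of Pecam1, Flt1, Tie1, Cldn5 and Sox17 lie above 0 in young runners minus young controls, with adjusted p of 0.0763 to 0.164.

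Averaged over both ages, on log2(normalised reads + 10) of all 16 libraries, all 10 markers had a positive difference between runners and controls and none was called. Flt1 differed by 2.09 ± 0.73 (SE; 95% interval 0.54 to 3.63, adjusted p = 0.0979, limma), Pecam1 by 2.02 ± 0.80 (adjusted p = 0.140), Emcn by 1.54 ± 0.63 (adjusted p = 0.152), Cldn5 by 1.14 ± 0.48 (adjusted p = 0.166) and Sox17 by 1.02 ± 0.46 (adjusted p = 0.192). The remaining 5 markers lay between 0.20 (Tek) and 1.61 (Kdr), with adjusted p from 0.254 to 0.895. In this model 5 of the 10 markers had an unadjusted p under 0.05 and 0 passed (limma voom, 0). Of all 14358 genes 805 passed (5.61%) and 3416 had an unadjusted p under 0.05. The median difference was 1.13 for the markers and 0.03 for all genes. Sox17 alone passed when 1 library was left out, without Oc3 (1.38, adjusted p = 0.0499).

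The running effect was compared between the ages as (old runners - old controls) - (young runners - young controls). The estimate was negative for 9 of the 10 markers, that is a larger difference at 4 than at 22 months, and none passed (0 by limma and by limma voom, with 2 at an unadjusted p under 0.05). Over all 14358 genes 56.7% of the estimates were positive, with a median of 0.08. The signs of Cdh5, Emcn and Eng turned when certain single libraries were left out. Tie1 gave -3.90 ± 1.62 (adjusted p = 0.743) and Sox17 -2.60 ± 0.92 (adjusted p = 0.648), and Tek was positive at 1.75 ± 1.40 (adjusted p = 0.905). No gene of 14358 was called in this contrast (0%, with 878 at an unadjusted p under 0.05). The 95% interval of the difference ran from -4.56 to -0.65 for Sox17 and from -4.38 to 1.79 for Flt1.

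Without running, the old controls had a higher mean of all 10 markers than the young controls, with a ratio of the sums of 3.10. Tie1 averaged 7.02 ± 5.30 RPM in old controls and 1.37 ± 1.56 RPM in young controls and differed by 1.08 ± 0.39 (adjusted p = 0.327, limma), and Sox17 averaged 9.44 ± 11.7 RPM in old controls and 1.83 ± 1.07 RPM in young controls and differed by 0.85 ± 0.40 (adjusted p = 0.462). Cldn5 averaged 13.5 ± 13.5 RPM in old controls and 5.77 ± 3.58 RPM in young controls (0.53 ± 0.44, adjusted p = 0.683). Of the 10 markers 6 passed the filter, 1 had an unadjusted p under 0.05 and 0 were called (limma voom, 0). Of all 9831 genes 11 were called (0.112%) and 1099 had an unadjusted p under 0.05. No marker was higher in every old control than in every young control, which 409 of 9831 genes were (4.16%). The median difference was 0.47 over the 10 markers and -0.01 over all genes tested. Without Oc3 the ratio of the sums was 1.70, and that of Sox17 was 1.98 in place of 5.16. The erythroid genes summed to 4.77 to 21.04 RPM in old controls and 0.293 to 6.53 RPM in young controls (0 of 2 tested passed). Fibro-adipogenic markers summed to 5.72 to 50.5 RPM in old controls and 1.33 to 17.0 RPM in young controls (0 of 2 tested passed). Among macrophage markers Mrc1, which encodes a mannose receptor, fell in old controls (-1.56, adjusted p = 0.0448), and the Schwann cell gene Mbp, which encodes myelin basic protein, differed by 1.51 (adjusted p = 0.0684). The part of these cells in the differences of the endothelial markers was not tested.

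Among runners, old and young libraries overlapped for every marker. The ratio of the sums, old runners over young runners, was 0.761, and 1.11 without young runner Y1ex. Fibro-adipogenic markers summed to 43.0 to 93.9 RPM in old runners, where Pdgfra was at 0, and 80.4 to 272 RPM in young runners. None of the 7 tested passed by limma, and their median was -0.71. At an unadjusted p under 0.05, 4 of them were lower in old runners, as were 235 of all 9387 genes. The part of these markers in the differences was not tested. Sox17 averaged 4.74 ± 2.46 RPM in old runners and 9.85 ± 6.80 RPM in young runners (-0.49 ± 0.24, adjusted p = 0.982, limma). Cldn5 averaged 12.5 ± 8.82 RPM in old runners and 21.7 ± 15.2 RPM in young runners (-0.51 ± 0.32, adjusted p = 0.988). Tek averaged 1.82 ± 1.72 RPM in old runners and 0.273 ± 0.528 RPM in young runners, under the filter. Of the 7 markers tested 0 were called and 0 had an unadjusted p under 0.05 (limma voom, 0), where 2 of 9387 genes were called (0.0213%). Of the markers, 0 of the 10 were higher in every old runner than in every young runner, which 172 of 9387 genes were (1.83%). Averaged over running and not, 9 of the 10 markers had a positive difference between old and young, the largest that of Tek (1.03 ± 0.70, adjusted p = 0.650). None passed (0 also by limma voom, and 0 at an unadjusted p under 0.05), and 52 of 14358 genes were called (0.362%).

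The levels of the markers varied together from library to library. Over the 45 pairs of markers, the Pearson r of log2(normalised reads + 10) across the 16 libraries had a median of 0.59 and was above 0 in 44 pairs and above 0.5 in 29. With the mean of each group removed the median was 0.51, with 44 pairs above 0 and 23 above 0.5. Over all pairs of 14358 genes the median r was 0.01, 51.3% of pairs were above 0 and 6.5% above 0.5 (8.4% with group means removed). The libraries of these points share depth, size factors and the composition of the sample, and r is given as a description. The closest pairs were Cldn5 with Sox17 (r = 0.86, Spearman rho = 0.81), Flt1 with Cldn5 (r = 0.84, rho = 0.94), Pecam1 with Kdr (r = 0.83, rho = 0.84) and Pecam1 with Emcn (r = 0.82, rho = 0.86). Tek stood apart: its r with the mean of the other 9 markers was 0.21 (rho = 0.29; r = 0.26 with group means removed), against 0.65 (Kdr) to 0.84 (Emcn) for the rest, and its r with Sox17 was -0.18. Its closest markers were Eng (r = 0.47, and 0.53 with group means removed) and Tie1 (r = 0.32, and 0.53 with group means removed). Without Y1ex and Oc3, the 2 libraries farthest from the median of the other 9, the r of Tek with them was 0.57.

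**Figure D4:**
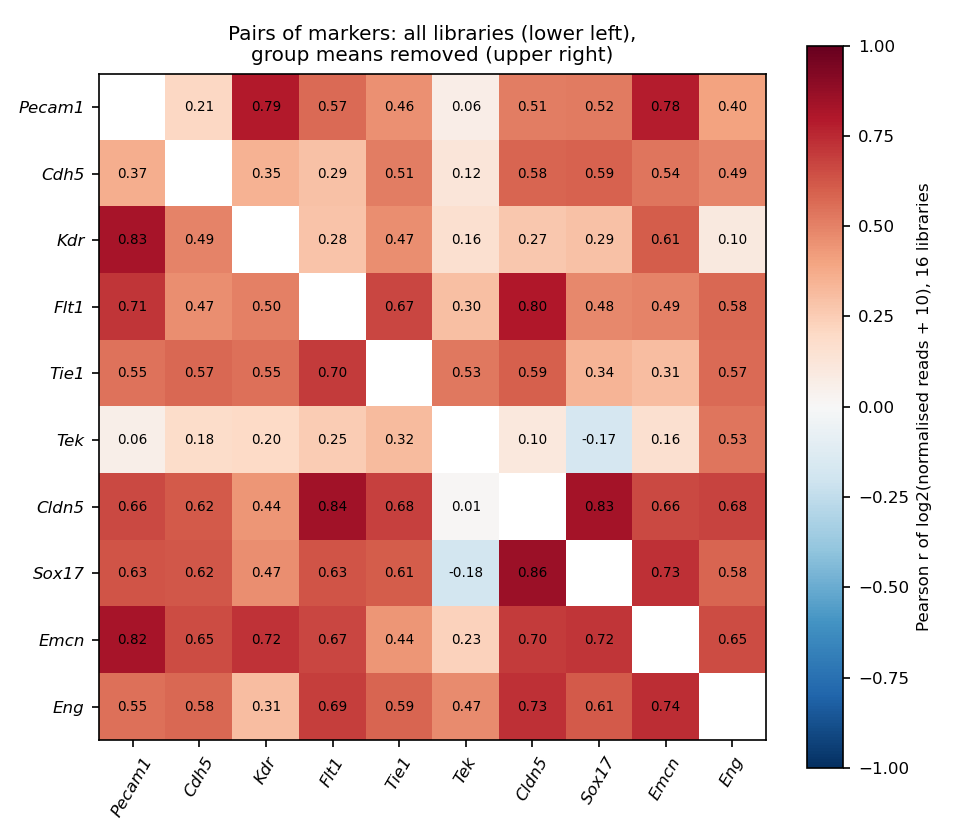
Pearson r of log2(normalised reads + 10) for each pair of markers over 16 libraries, as measured (lower left) and with the mean of each of the 4 groups removed (upper right). Most cells are positive, up to 0.86 for Cldn5 with Sox17, and Tek has the lowest values, from -0.18 with Sox17 to 0.47 with Eng as measured and from -0.17 to 0.53 with group means removed.

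RefSeq promoters (GRCm38.p6, 300 bases around the gene's start) were at hand for 7 of the markers. They were searched on both strands for GGAAG, which extends the ETS core GGAA by a base, and ACAAT, a core bound by SOX factors. The shorter GGAA was not counted, and a promoter without GGAAG can hold it, as that of Tek does (TTCC on the strand shown). ETS factors are known regulators of endothelial genes. GGAAG or its complement CTTCC stood in 71.4% of all 32851 promoters and ACAAT or ATTGT in 31.0%. Of the 7 markers, GGAAG or CTTCC was in 5, with 7 matches in Tie1, 3 in Flt1, 2 in Eng, 2 in Emcn, 1 in Kdr and none in Cldn5 and Tek, against a mean of 1.33 per promoter. ACAAT or ATTGT was in Tek (2 matches) and Emcn (1 match). The promoters of Tie1, Flt1 and Cldn5, whose genes varied together, and of Tek, which stood apart, are shown 5′ to 3′ in the direction of the gene, with matches to either motif in capitals. A match describes these letters and is not a binding site. The promoters of Cldn5 and Flt1, with an r of 0.84 between the genes, shared neither motif.
Tie1 (chr4:118489800-118490099, minus strand): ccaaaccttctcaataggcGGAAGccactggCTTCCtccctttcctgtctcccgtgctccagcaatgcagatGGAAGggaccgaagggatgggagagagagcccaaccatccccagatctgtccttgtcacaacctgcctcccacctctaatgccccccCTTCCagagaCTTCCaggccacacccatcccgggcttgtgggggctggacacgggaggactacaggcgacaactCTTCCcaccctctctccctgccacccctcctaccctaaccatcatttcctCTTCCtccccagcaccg
Flt1 (chr5:147725962-147726261, minus strand): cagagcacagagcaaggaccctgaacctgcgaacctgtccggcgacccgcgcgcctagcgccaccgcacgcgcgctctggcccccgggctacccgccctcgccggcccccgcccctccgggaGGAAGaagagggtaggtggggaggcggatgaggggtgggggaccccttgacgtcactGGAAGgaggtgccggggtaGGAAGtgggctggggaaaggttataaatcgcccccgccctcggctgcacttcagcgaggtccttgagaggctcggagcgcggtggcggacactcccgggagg
Cldn5 (chr16:18776597-18776896, plus strand): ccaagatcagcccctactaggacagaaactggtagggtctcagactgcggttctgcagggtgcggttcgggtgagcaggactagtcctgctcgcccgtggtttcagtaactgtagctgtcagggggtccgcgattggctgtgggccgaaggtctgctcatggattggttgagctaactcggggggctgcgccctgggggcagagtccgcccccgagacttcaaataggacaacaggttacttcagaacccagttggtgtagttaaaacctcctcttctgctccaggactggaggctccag
Tek (chr4:94739039-94739338, plus strand): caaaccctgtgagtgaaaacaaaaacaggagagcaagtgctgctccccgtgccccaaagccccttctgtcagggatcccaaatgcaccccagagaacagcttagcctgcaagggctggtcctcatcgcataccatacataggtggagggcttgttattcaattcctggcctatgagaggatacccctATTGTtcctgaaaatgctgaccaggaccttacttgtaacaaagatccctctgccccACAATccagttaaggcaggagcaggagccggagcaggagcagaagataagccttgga

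The genes whose level followed the mean of the 10 markers most closely over the 16 libraries, among 14358 and without predicted genes, were Ifitm3 (r = 0.93, rho = 0.93), Aqp1 (r = 0.92, rho = 0.88), Icam1 (r = 0.92, rho = 0.90), Msn (r = 0.92, rho = 0.85), Tm4sf1 (r = 0.90, rho = 0.86), S100a11, Gja1, Rasip1, Plaur and Steap4 (r = 0.89 to 0.90). With group means removed, the first 10 were Aqp1 (r = 0.93, rho = 0.91), Ifitm3, Adcy4, Lgals9, Mmrn2, Icam1, Msn, Egr3, Adgrl4 and Fabp4 (r = 0.88 to 0.91). Aqp1 encodes the water channel aquaporin-1, Icam1 an adhesion molecule for leukocytes, Msn the membrane linker moesin and Gja1 the gap junction protein connexin 43. Aqp1 ran from 8.31 to 135 RPM. Levels were low for Egr3 (0 to 0.581 RPM), S100a11 (0 to 2.43 RPM) and Lgals9 (0 to 4.59 RPM), with no read in at least 1 library each. Without the 2 libraries farthest from the median the genes of both lists kept an r of 0.82 to 0.93. Of the 16 genes that were in either list, Icam1 rose in young runners (1.79 on the deposited scale, adjusted p = 0.0474, limma). Averaged over both ages, Icam1 (1.85, adjusted p = 0.0221, limma), Plaur and Steap4 (adjusted p = 0.0256 and 0.0424) rose with running. The first list was picked in the same libraries with group differences included, and the markers themselves had positive differences with running averaged over both ages. The choice of its genes thus favours such differences, and these p-values are not independent of it. Icam1 was also in the list with group means removed, while Plaur and Steap4 were not.

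Other endothelial genes showed how far the set extends. In young runners 22 of 32 further endothelial genes were tested and none passed, with a median of 0.57 against 0.01 for all genes; the smallest p was that of Cd93, an endothelial surface glycoprotein (1.18, adjusted p = 0.0547, limma). In old runners 14 were tested and none passed (Thbd, thrombomodulin, 0.78, adjusted p = 0.206). Averaged over both ages Selp, the adhesion molecule P-selectin of activated endothelium and platelets, rose by 3.14 ± 0.77 on the log2(normalised reads + 10) scale (adjusted p = 0.0298), with a mean of 5.40 RPM (0 to 19.8) in old runners, 0.40 RPM (0.0424 to 1.08) in old controls, 11.2 RPM (1.997 to 36.3) in young runners and 0.00978 RPM (0 to 0.0391) in young controls. Thbd made up 39.0% of the summed level of that list, and Nostrin was without a read in old controls, young runners and young controls. Of 13 transcription factor genes of endothelium none passed in any of the comparisons; Ets1 had the smallest p with running (0.81 with adjusted p = 0.303 at 22 months, and 1.45 with adjusted p = 0.0711 at 4 months). Erg had no read in 10 of the 16 libraries, among them all 4 young controls, and Tal1 had none in 14 and at most 6 reads.

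Among the ligands and partners of these receptors, Vegfa, the main ligand of Kdr, fell with running averaged over both ages by 0.78 ± 0.17 (adjusted p = 0.0191, limma), at 452 RPM in old runners, 714 RPM in old controls, 475 RPM in young runners and 946 RPM in young controls. Pgf, which encodes placental growth factor, a ligand of Flt1, rose with running averaged over both ages (2.91 ± 0.66, adjusted p = 0.0215) and in young runners (1.78 ± 0.34, adjusted p = 0.0477), at 6.16 RPM in young runners and 0.132 RPM in young controls. In the old groups Pgf averaged 1.86 RPM (0.771 to 3.58) in old runners and 1.89 RPM (0 to 7.55) in old controls, and it was under the filter of the 22-month comparison. No gene of the angiopoietin and apelin pathway passed; Angpt2, the context-dependent ligand of Tek, had the smallest p with running averaged over ages (2.02, adjusted p = 0.113), and Angpt1, the activating ligand, stood at 20.1 RPM in old runners, 18.01 RPM in old controls, 16.1 RPM in young runners and 14.3 RPM in young controls. In the Notch pathway Hes1 and Dll1 fell with running averaged over both ages (-1.14 and -1.18, adjusted p = 0.0139 and 0.0352, limma). Notch4, the Notch receptor typical of endothelium, rose in the same contrast (1.72, adjusted p = 0.0440). Notch4 had no read in 6 of the 16 libraries. It averaged 0.659 RPM in old runners, 0.213 RPM in old controls, 1.39 RPM in young runners and 0.019 RPM in young controls. In the pathway of BMP9 and endoglin, Id2, an inhibitor of DNA binding by bHLH factors, fell in young runners (-1.72, adjusted p = 0.0357) and averaged over ages (-1.25, adjusted p = 0.0149).

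Of 12 junction and caveola genes, Ptrf, which encodes a coat protein of caveolae, rose with running averaged over both ages (0.76 ± 0.20, adjusted p = 0.0361, limma). None passed within an age, where Cav1, caveolin-1, had the smallest p at 4 months (1.99, adjusted p = 0.102) and Ptrf at 22 months (0.58, adjusted p = 0.142). Of 10 hypoxia response genes, Egln1, an oxygen sensor that marks HIF for destruction, rose averaged over ages (0.54, adjusted p = 0.0357). Lymphatic endothelial markers summed to 1.63 to 3.84 RPM in old runners, 0 to 1.96 RPM in old controls, 4.35 to 9.88 RPM in young runners and 1.80 to 10.4 RPM in young controls. Lyve1, a defining marker, was without a read in 13 of 16 libraries. Prox1 and Pdpn, which also have roles outside lymphatics, fell with age averaged over running and not (-3.26 and -2.19, adjusted p = 0.000904 and 0.0235). Averaged over both ages, 6 of 11 fibro-adipogenic markers rose with running, among them Dcn (3.73), Gsn (3.33), Col3a1 (3.42) and Col1a1 (2.67), and 2 of the 9 pericyte and smooth muscle markers tested rose, Rgs5 (2.39, adjusted p = 0.0318) and Acta2 (1.93, adjusted p = 0.0492).

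Across libraries, the summed markers varied with some lists of other cells and not with others. The r between log2(RPM + 1) of the summed markers and of a list over 16 libraries was 0.87 for the 5 erythroid genes (rho = 0.76, with r = 0.82 without Y1ex and Oc3, the 2 libraries farthest from the median of the markers). It was 0.85 for endothelial transcription factors (rho = 0.73), 0.74 for fibro-adipogenic markers (rho = 0.73) and 0.71 for junction and caveola genes (rho = 0.74). It was 0.60 for the other endothelial genes (rho = 0.44, with r = 0.35 without those 2), 0.55 for pericyte and smooth muscle markers (rho = 0.56), 0.21 for macrophage and leukocyte markers (rho = 0.20) and -0.15 for myofibre genes (rho = -0.11). With group means removed it was 0.82 for erythroid genes, 0.90 for endothelial transcription factors, 0.58 for fibro-adipogenic markers and -0.32 for myofibre genes. Epas1 led the summed transcription factors (24.9%), with Ets1, Klf2 and Klf4 next at means of 21.2, 16.15 and 10.05 RPM in old runners. In that group the whole list averaged 82.1 RPM, while Erg, Sox18 and Tal1 averaged 0.537, 0.421 and 0.033 RPM. With the number of genes that had a read, r was 0.10 (rho = 0.07), and 0.47 with group means removed. With the log2 of the assigned reads it was -0.44 (rho = -0.39, with r = -0.20 without Y1ex and Oc3), and -0.36 with group means removed. The points share libraries and depth. The part of other cell types in this variation was not tested.

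**Figure D5:**
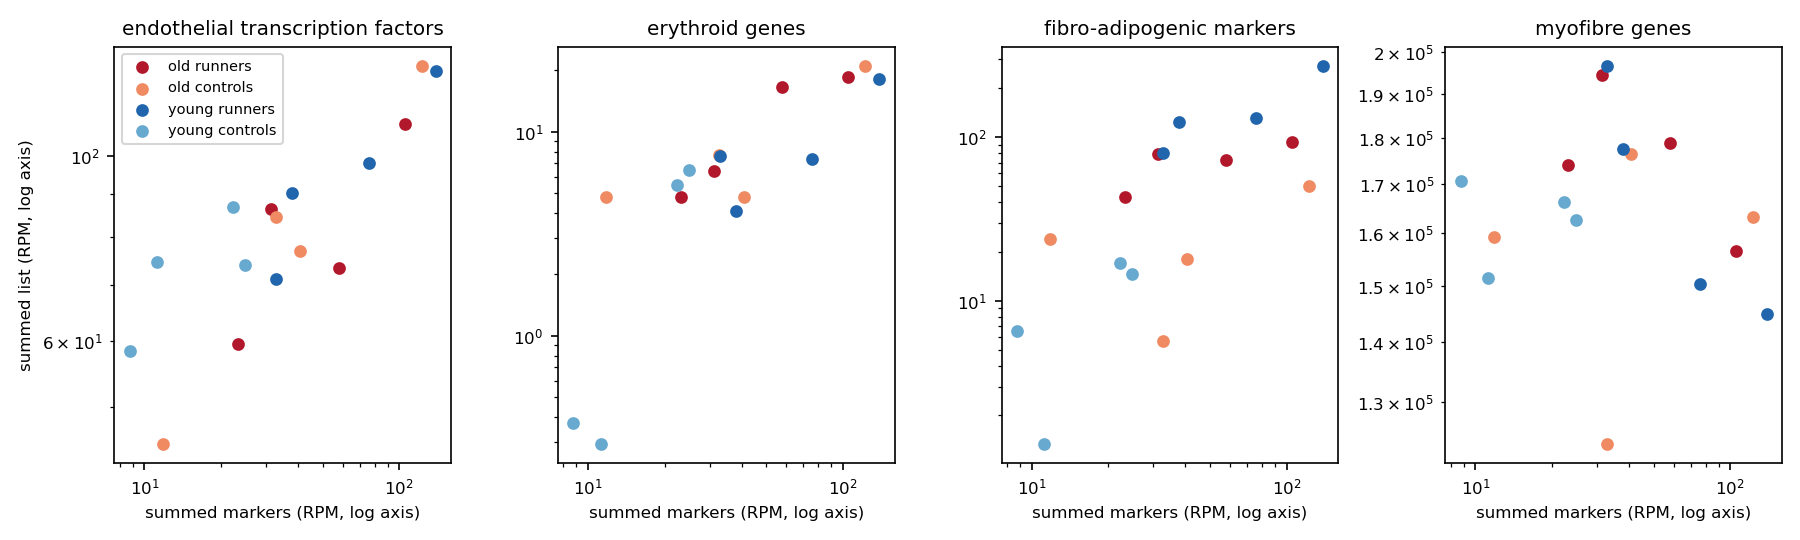
Summed level of 4 gene lists (vertical axes) against the summed 10 endothelial markers (horizontal axes), in RPM on log axes, with 1 point for each of the 16 libraries. Endothelial transcription factors (a sum led by Epas1, r = 0.85 on log2(RPM + 1)) and erythroid genes (r = 0.87) climb with the markers. Fibro-adipogenic markers separate the young groups (80.4 to 272 RPM in young runners and 1.33 to 17.0 RPM in young controls). Myofibre genes do not follow the endothelial markers (r = -0.15).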

How the data were processed

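Bulk RNA-seq was made from 10 ng of total RNA of myofibres with SMART-Seq v4 amplification and the Ovation Ultralow System v2, per the labels' protocols. Reads were processed on mm10 with Trim Galore, STAR, featureCounts of Subread and DESeq2, per the submitters' processing notes; versions, annotation and strand setting are not given in the sources used here. Each of 4 tables that the authors deposited holds log2 values of 2 groups, found here to be variance-stabilised, and has a lowest value m of its own (6.73 to 7.69). The transformation was inverted for each table and divided by the value of a single read in each library. By this 100% of 661392 values were whole within 0.02, and libraries present in 2 tables gave the same reads in both. RPM and the joint model use these reads (30.7 to 67.4 M per library). A count of 0 was given a limit of 3 reads, which covers counting error only. The intervals of the limma estimates rest on the spread between libraries.

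Each pair of groups was tested in its table with limma 3.58.1 in R 4.3.3 (variance trend, 2-sided), on genes at least 1 above m in at least 4 libraries, with Benjamini-Hochberg adjustment across each comparison's tested genes and an adjusted p of 0.05 as the limit for a call. Contrasts over 16 libraries used limma on log2(normalised reads + 10) with median-of-ratios size factors and at least 10 reads in at least 4 libraries. No table held count data, so no count model was run. Python 3.11.15 was used for the rest, and the fits were tested on simulated data. Symbols were matched to GENCODE M21 (22205 of 23222, 95.6%). Runner columns were matched to samples by title, except O4ex and Y4ex, which with the control columns were matched to their group only.

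The markers and lists were chosen with earlier results of these data known. Genes named are the 10 markers and the 10 genes most correlated with the mean z-score of the markers, with and without group means. From the other lists, up to 4 genes past the threshold per comparison, or else the gene with the smallest p, could be named, and not all were. Those past the threshold and not described above were Myh1 (1.43, adjusted p = 0.00992, limma) and the tendon gene Tnmd (1.64, adjusted p = 0.0357) with running averaged over both ages. Mbp passed with age averaged over running and not (2.53, adjusted p = 0.00193, limma). Other genes named in the text (Cd68, Ptprc, Pdgfra, Nostrin, Erg, Tal1, Epas1, Klf2, Klf4, Sox18, Lyve1, Angpt1, Gm37587 and Fpgs) were chosen after their values were seen. Alternatives were other filters, median centring, quantile normalisation, no trend, library weights, voom, other pseudocounts, RPM in place of size factors, blocking on replicate numbers and leaving out single libraries.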

Additional observations from a re-analysis of the deposited data

Results flagged for a closer look

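Within groups of 4 libraries, 3 values stood far from the others, with a gap to the nearest library beyond Dixon's critical value for 4 samples. Sox17 had 26.87 RPM in old control Oc3, where the gap was 0.875 of the range. Emcn had 4.35 RPM in old runner O3ex (gap 0.849 of the range). Tek had 1.07 RPM in young runner Y4ex (gap 0.974 of the range), the other young runners having 1 read or none. In all 44 sets of 4 were examined (10 markers and their sum in 4 groups), and chance flags about 1 in 20 sets, so 3 is close to that number.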

How the results depend on the processing

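The direction and the lack of a call held for 1217 of 1280 combinations of 70 marker results with an alternative. No alternative called a marker except library weights at 4 months, with 6 members called, and the removal of Oc3 from running averaged over both ages (members called 0 to 1 over the removals). Emcn and Tek were under the filter in all 4 pairs of groups, Cdh5 in both comparisons of age within pairs, and Kdr in age without running. No test of them was made there in the main fits, and most alternatives could not call them. Where their direction held, these combinations are counted among the 1217, so for them the lack of a call is not a result.

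On the log2 scale the sign of some small differences turned; the cause was not tested. With library weights they were -0.0608 (Pecam1) and -0.16 (Cldn5) for running at 22 months and -0.18 (Kdr) for age with running. With voom they were -0.0069 (Pecam1, age without running), -0.15 (Tek, running averaged), -0.0619 (Pecam1) and 0.0124 (Cldn5, both age averaged) and 1.08 (Emcn, difference between ages, 0.38 with a pseudocount of 1). With 1 library left out, differences ran from -0.47 to 0.18 (Tie1), -0.21 to 0.53 (Cldn5) and -0.45 to 0.20 (Sox17) for running at 22 months; from -0.0667 to 0.88 (Pecam1) for age without running; from -0.45 to 0.0767 (Pecam1), -0.16 to 0.42 (Kdr), -0.13 to 0.19 (Flt1), -0.626 to 0.0246 (Tie1) and -0.0723 to 0.26 (Eng) for age with running; from -0.11 to 0.63 (Tek) for running averaged; from -0.29 to 0.80 (Pecam1) and -0.32 to 0.34 (Cldn5) for age averaged; and from -1.44 to 0.11 (Cdh5), -1.17 to 0.36 (Emcn) and -0.91 to 0.22 (Eng) for the difference between ages.

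The median difference of the markers grew on scales that compress low values less, to 1.27 with voom and 1.39 with log2(normalised reads + 1) for running at 22 months, 2.56 and 2.47 for running at 4 months, and 1.101 and 1.22 for age without running.

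Counts of all genes called moved more. For running at 22 months (12) they were 7 without a filter, 27 with a filter of 2 above the lowest value, 23 with median centring, 22 with quantile normalisation, 4 without a variance trend, 688 with library weights, 3 with voom, 3 with log2(normalised reads + 1) and 1 to 295 with 1 library left out (295 without Oc1). For running at 4 months (81) they were 24 without a filter, 143 with median centring, 157 with quantile normalisation, 47 without a variance trend, 1394 with library weights, 13 with voom, 10 with log2(normalised reads + 1) and 0 to 181 with 1 library left out (0 without Y2ex, 181 without Yc4). For age without running (11) they were 3 without a filter, 21 with quantile normalisation, 461 with library weights, 3 with voom, 4 with log2(normalised reads + 1) and 3 to 52 with 1 library left out (52 without Yc4). For age with running (2) they were 7 with library weights and 0 to 3 with 1 library left out. Running averaged over both ages (805) gave 430 without a filter and 314 to 1044 with 1 library left out, and age averaged (52) gave 33 to 106.

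A replicate block was possible only for age with running, by the numbers in the runner headings, and it called 0 genes in place of 2 and 0 markers. The same-numbered libraries did not deviate together (r of -0.24, 0.09, -0.40 and -0.04 over 9387 genes), so no pairing by number was seen in these values. Whether same-numbered libraries were handled together was not tested. The block planned for age without running was not run, because the headings of the control columns share too few numbers between ages.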
